A study of Mus musculus with 8 samples.

Results

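HTT ChIP-seq peaks were examined at 10 genes, namely Htt itself, the genes of the HTT-associated proteins Hap1 and Hip1, the transcription regulators Rest, Sp1, Crebbp, Tbp, Ncor1 and Ppargc1a, and the neurotrophin gene Bdnf. These 10 were chosen by name from 22367 protein-coding genes of the GENCODE vM1 annotation on the mm9 genome. A peak was assigned to a gene when at least 1 base of it fell in a window that opened 20 kb before the start site and closed 1 kb after the end of the gene. The number of peaks in each window was set beside the number expected, which is the window length multiplied by the peak density of that library over the genome outside gaps. On mm9, Htt lies at chr5:35104389-35255183 (plus strand). The genes of HTT-associated proteins lie as follows, Hap1 at chr11:100208641-100217455 (minus strand) and Hip1 at chr5:135882393-136020992 (minus strand). Of the transcription regulators, Rest lies at chr5:77694516-77715457 (plus strand), Sp1 lies at chr15:102236574-102266835 (plus strand), Crebbp lies at chr16:4084048-4213404 (minus strand), Tbp lies at chr17:15636852-15665343 (plus strand), Ncor1 lies at chr11:62129928-62272043 (minus strand) and Ppargc1a lies at chr5:51845488-51958964 (minus strand). Bdnf lies at chr2:109514857-109567204 (plus strand).

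Cortex of male mice on the B6 background was studied in 4 groups, with 1 ChIP library and 1 input sample per group (8 samples, of which the 4 ChIP libraries have peak lists). Htt+/+ mice carry 2 mouse alleles, and HttQ111/+ mice carry 1 knock-in allele in which human HTT exon 1 with a lengthened CAG tract takes the place of mouse exon 1. ASO groups received 500 µg of a pan-huntingtin antisense oligonucleotide into 1 lateral ventricle at 4 months of age, and the cortex on the injected side was collected 4 weeks later. Mice of the untreated groups are also given as 4 months old at the start, with no time of collection after it in the labels. Untreated groups had no injection, so the oligonucleotide cannot be told apart from the injection, and no control oligonucleotide was part of the design. Each preparation pooled cortex of 3 mice according to the labels, although the methods of the study give a smaller pool for the ASO-treated cortices, so the pool size is uncertain. The antibody, EPR5526, recognizes the N-terminal part of HTT of either allele.

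Huntingtin is a large scaffold protein of the cytoplasm and nucleus whose CAG-encoded glutamine tract is lengthened in Huntington's disease. Much of what is known of transcription in the disease concerns factors that bind HTT. REST, the repressor of neuronal genes, is held in the cytoplasm by normal HTT, and SP1, CREB-binding protein and TBP bind the mutant protein or gather in its aggregates. BDNF, on which striatal neurons depend, and PGC-1alpha, the coactivator of mitochondrial genes, are the best known of the genes whose output is lowered in the disease.

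Sequences of 5 places are shown because peaks near a start site or with a high fold enrichment lay there. The region with the most reads, at the end of Tbp, lies in noncoding exon sequence and is not shown. All were read from the mm9 (NCBIM37) reference, so none is the sequence of the knock-in allele. The first is the coding part of Htt exon 1 and the beginning of intron 1 (chr5:35104556-35104855, plus strand), where capitals mark the run of 7 in-frame glutamine codons, 6 of them CAG and 1 CAA. The peak of the Htt+/+ untreated library at Htt began at base 127 of this run, 54 bases past the tract.
Htt exon 1: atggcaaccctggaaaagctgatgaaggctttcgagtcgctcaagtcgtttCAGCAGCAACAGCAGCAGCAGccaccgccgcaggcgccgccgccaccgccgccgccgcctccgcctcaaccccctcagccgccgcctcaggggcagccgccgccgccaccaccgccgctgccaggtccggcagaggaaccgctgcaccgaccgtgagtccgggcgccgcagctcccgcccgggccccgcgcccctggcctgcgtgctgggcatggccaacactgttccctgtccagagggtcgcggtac
The second is the 250 bases before the start site of Rest (chr5:77694266-77694515, plus strand), with the 7 GC boxes in capitals. A GC box is the letters GGGCGG on either strand, the site that SP1 binds, and overlapping copies are counted separately. The last 21 bases of the run lie in the region that carried a Rest peak in 2 libraries.
Rest start: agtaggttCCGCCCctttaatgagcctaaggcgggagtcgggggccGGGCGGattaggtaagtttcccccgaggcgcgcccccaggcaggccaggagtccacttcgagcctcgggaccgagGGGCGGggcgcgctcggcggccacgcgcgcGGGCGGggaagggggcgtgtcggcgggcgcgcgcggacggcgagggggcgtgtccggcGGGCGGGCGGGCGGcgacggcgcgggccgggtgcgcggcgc
The third is the part of the shared Ncor1 region next to a start site (chr11:62270838-62270937, minus strand), with its 1 GC box in capitals.
Ncor1 start: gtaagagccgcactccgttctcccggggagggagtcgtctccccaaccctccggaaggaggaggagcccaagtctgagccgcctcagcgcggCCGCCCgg
The last pair is the 200 bases around the summits of an Sp1 peak upstream of the gene (chr15:102235649-102235848, plus strand), with 3 GC boxes in capitals, and of the Hip1 peak with the highest fold enrichment, in an intron (chr5:135927167-135927366, minus strand), which holds none.
Sp1 upstream: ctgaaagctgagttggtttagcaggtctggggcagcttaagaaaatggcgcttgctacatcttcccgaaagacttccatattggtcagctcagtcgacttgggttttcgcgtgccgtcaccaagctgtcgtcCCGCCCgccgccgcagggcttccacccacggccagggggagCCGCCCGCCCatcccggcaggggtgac
Hip1 intron: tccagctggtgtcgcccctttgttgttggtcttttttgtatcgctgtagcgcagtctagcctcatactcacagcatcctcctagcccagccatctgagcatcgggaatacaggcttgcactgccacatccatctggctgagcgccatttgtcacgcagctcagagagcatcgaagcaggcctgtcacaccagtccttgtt
The first 4 of these are rich in CG dinucleotides (34, 44, 10 and 15 copies), and the Hip1 intron has 7.

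Few reads lay behind each peak. Between 40505 and 47957 peaks were deposited per library, with a median of 3 reads at the summit, and 81.1% to 87.3% of the peaks of 3 libraries and 79.6% of those of the Htt+/+ ASO library rested on 2 to 4 reads. HTT peaks do not measure expression, so cell types could not be checked as in RNA data. Marker genes gave no uniform order. A peak within 1 kb of the start in at least 1 library was found for 5 of 6 markers of cortical excitatory neurons, 1 of 5 of interneurons, 2 of 4 of astrocytes, 0 of 4 of oligodendrocytes, 0 of 3 of microglia and 0 of 5 of tissues outside the brain, against 35.0% of all protein-coding genes. Observed to expected peaks over the whole windows of these 6 lists were 1.81, 1.07, 1.23, 1.11, 2.21 and 1.65, against 1.23 for all protein-coding genes, and none of the markers had a start-site region shared by 2 libraries. Values below are given in the order Htt+/+ untreated, Htt+/+ ASO, HttQ111/+ untreated and HttQ111/+ ASO unless stated otherwise, and Poisson and ratio intervals cover counting error only. With 1 library per group there was no spread between replicates.

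Over the 10 windows together, which span 1025 kb, HTT peaks were about as frequent as over the genome at large. The windows held 19 peaks in the Htt+/+ untreated library against 17.7 expected, and 13 against 16.3 in the Htt+/+ ASO library. In the HttQ111/+ libraries the counts were 22 against 19 without and 16 against 16.1 with ASO. The ratios of observed to expected were 1.07, 0.796, 1.16 and 0.995, and each 95% Poisson interval holds 1 (0.647 to 1.68, 0.424 to 1.36, 0.725 to 1.75 and 0.569 to 1.62). Windows of all protein-coding genes were denser in peaks than the genome, and relative to them the 10 genes had ratios of 0.846, 0.66, 0.863 and 0.911.

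A window held at least 1 peak for 9 of the 10 genes in the Htt+/+ untreated library, against 63.7% of all genes. For 6 genes this was so in the Htt+/+ ASO library (61.0% of all genes), for 7 in the HttQ111/+ untreated library (67.1%) and for 7 in the HttQ111/+ ASO library (55.1%). The density alone gives, for windows of these lengths, 7.45, 7.23, 7.64 and 7.19 genes with a peak. Windows of 4 genes, Htt, Hip1, Rest and Ncor1, held a peak in all 4 libraries, as did 26.8% of all windows. The shares of all genes were not matched for window length. Only 6.23%, 6.98% and 6.79% of genes had longer windows than Htt, Hip1 and Ncor1, and 42.3% had longer ones than Rest.

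**Figure D1:**
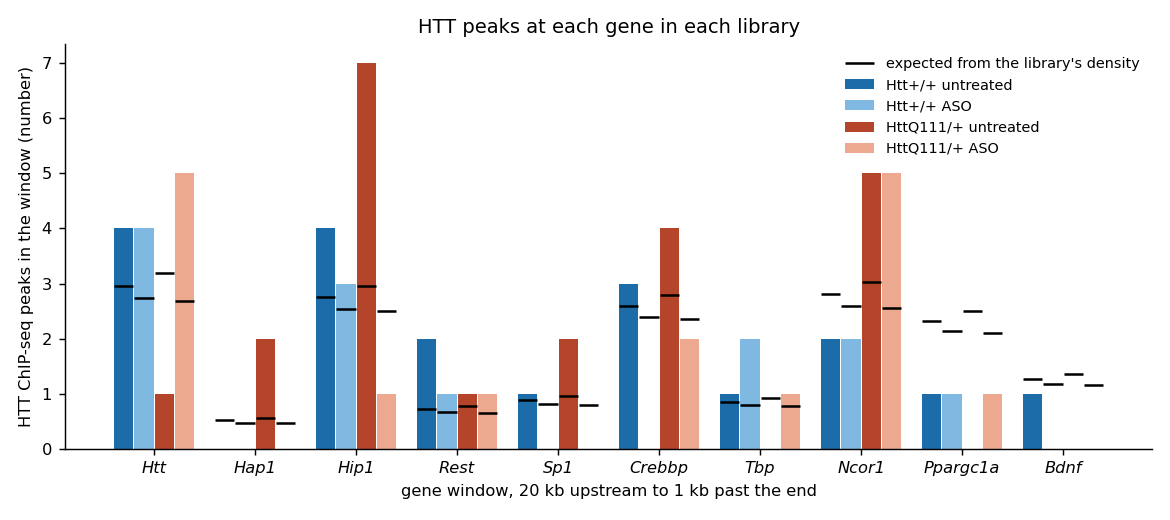
Number of HTT peaks in each gene window (bars, y axis) in the 4 libraries, with the number expected from the peak density of the library as a black line. Hip1 in the HttQ111/+ untreated library has the tallest bar (7 peaks against 2.96 expected), and Ppargc1a and Bdnf lie below their expected numbers in every library.

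Peaks at Htt, the gene of the immunoprecipitated protein, were spread over the gene and close to the expected number. The window of 171.8 kb held 4, 4, 1 and 5 peaks against 2.96, 2.74, 3.19 and 2.69 expected. The HttQ111/+ untreated library was the lowest and its ASO-treated counterpart the highest, and all 4 exact intervals (1.09 to 10.24 for 4 peaks, 0.025 to 5.57 for 1 peak, 1.623 to 11.67 for 5 peaks) hold the expected number. None of the 14 peaks overlapped a peak of another library, where 17.9% of all peaks in the genome did.

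At the start of Htt a peak was found in the Htt+/+ untreated library only (chr5:35104682-35104995). It had 5 reads at the summit, a fold enrichment over input of 2.45 and a −log10 q of 1.77, which misses the q cut of 0.01. The summit lay 321 bp past the start site, in the coding part of exon 1 and 83 bases past the glutamine tract, in the sequence shown above. In the other libraries the nearest peak to the start was 11.4 kb (Htt+/+ ASO), 84.4 kb (HttQ111/+ untreated) and 9.97 kb (HttQ111/+ ASO) away. In HttQ111/+ mice 1 of the 2 alleles carries human sequence in place of mouse exon 1, and how reads of that allele aligned to mm9 was not tested. The 3 peaks of the window that lay upstream of Htt were inside the neighbouring gene Grk4, 1 in the Htt+/+ ASO library and 2 in the HttQ111/+ ASO library, each with 2 or 3 reads. The other Htt peak with 5 reads, also of the Htt+/+ untreated library, lay 93.0 kb into the gene in a coding exon with a fold enrichment of 5.71.

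Between the genes of the HTT-associated proteins, peaks were found within the gene at Hip1 but not at Hap1, which is far shorter. Over the 4 libraries the gene itself held 12 peaks against 9.34 expected at Hip1 and 0 against 0.594 at Hap1. A contrast of this kind is thus expected from gene length alone. Hap1, huntingtin-associated protein 1, links HTT to motor complexes of axonal transport, and its window of 29.8 kb is the shortest of the 10. It held 0, 0, 2 and 0 peaks against 0.514, 0.475, 0.553 and 0.467 expected. Both peaks lay upstream, at -8.21 kb from the start with 4 reads and at -19.1 kb with 5 reads, the latter inside Jup. Hip1, huntingtin-interacting protein 1, takes part in clathrin-mediated endocytosis. Its window held 4, 3, 7 and 1 peaks against 2.75, 2.54, 2.96 and 2.5 expected, so the HttQ111/+ untreated library was highest and its ASO-treated counterpart lowest.

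Hip1 held the intronic peaks with the most reads of all 10 genes. A peak of the HttQ111/+ untreated library 126 kb into the gene had 9 reads and a fold enrichment of 3.84, and a peak of the HttQ111/+ ASO library with 5 reads and a fold enrichment of 5.27 began 760 bp from it without overlap. A peak of the Htt+/+ untreated library at 93.7 kb had 7 reads and the highest fold enrichment of the 70 peaks, 7.15, and is the intronic sequence shown above. None of the 15 Hip1 peaks overlapped one of another library, where 17.9% of all peaks in the genome did. Of the 15, 12 were inside the gene. Over the 4 libraries the 15 peaks compare with 10.8 expected (interval 8.4 to 24.74).

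**Figure D2:**
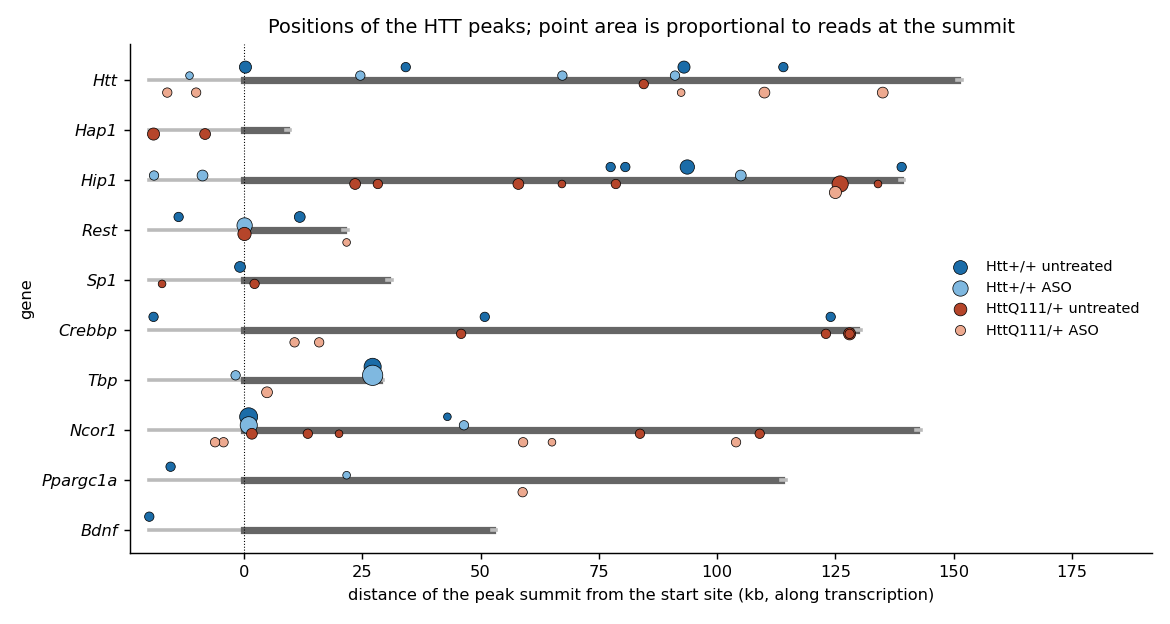
Position of the summit of each of the 70 HTT peaks along its gene (x axis, kb from the start site in the direction of transcription), with the gene as a dark bar, the flanks of the window in light grey and point area proportional to the reads at the summit. Large points lie at the starts of Rest and Ncor1, at the end of Tbp and in introns of Hip1 (9 and 7 reads). Most points along Htt, Hip1 and Crebbp are small and do not coincide between libraries.

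Among the transcription factors and cofactors, peaks shared by 2 libraries were found at Rest, Ncor1 and Tbp. A shared region was defined as overlapping peaks with q below 0.01 in at least 2 of the 4 libraries, of which there were 10493 in the genome. The windows of 3 of the 10 genes held one, against 31.1% of all genes. That share was not matched for window length, and the median window of all genes was 36.4 kb. Region density alone gives 0.172, 0.203 and 0.669 regions for the windows of Rest, Tbp and Ncor1. For the other genes it gives 0.122 (Hap1) to 0.705 (Htt). For 2 genes, Rest and Ncor1, the region was within 1 kb of the start site, against 10.4%. None of the 3 regions was supported by more than 2 libraries, and none had a peak in the HttQ111/+ ASO library.

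Rest encodes the repressor of neuronal genes outside neurons. Its window held 2, 1, 1 and 1 peaks against 0.723, 0.668, 0.778 and 0.658 expected. The shared region (chr5:77694495-77694755) reached from 21 bp before the start site to 239 bp past it and lay mostly in the noncoding first exon, next to the promoter run shown above. The Htt+/+ ASO library had 8 reads and a fold enrichment of 5.16 there, and the HttQ111/+ untreated library had 6 reads and a fold enrichment of 4.16. The Htt+/+ untreated and HttQ111/+ ASO libraries had no peak at the start, and their nearest peaks were 11.7 kb and 21.6 kb away. The peak of the HttQ111/+ ASO library, in the flank past the gene, rested on 2 reads with a −log10 q of 0.87. The pair of libraries with the peak thus shared neither genotype nor treatment.

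Ncor1 encodes a corepressor that recruits histone deacetylase 3 to nuclear receptors. Its window held 2, 2, 5 and 5 peaks against 2.81, 2.6, 3.03 and 2.56 expected, with both HttQ111/+ libraries above both Htt+/+ libraries. The shared region (chr11:62270838-62271223) came from the Htt+/+ libraries, with 11 reads and a fold enrichment of 4.56 without ASO and 10 reads and a fold enrichment of 4.39 with ASO. Its middle lay 1013 bp past the outermost start of the gene and it ended 4 bp short of a start from which, within 20 bp, 7 of its 30 annotated transcripts begin. Part of it is a noncoding first exon of another transcript, and the rest is the sequence shown above. The HttQ111/+ untreated library had no peak in the region but had 1 of 4 reads 306 bp away, with a fold enrichment of 2.37 and a −log10 q of 1.22. In the HttQ111/+ ASO library the nearest peak to the outermost start was 4.25 kb away, inside the neighbouring gene Pigl, and had 3 reads.

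Tbp encodes the TATA-box binding protein, itself a protein with a glutamine tract. Its window held 1, 2, 0 and 1 peaks against 0.854, 0.788, 0.918 and 0.776 expected. The shared region (chr17:15663852-15664343) held the peaks with the 2 highest −log10 q values of the 10 genes, at 10 reads, a fold enrichment of 6.66 and a −log10 q of 13.89 in the Htt+/+ untreated library and 14 reads, 6.09 and 15.95 in the Htt+/+ ASO library. It lay at the far end of Tbp, 27.2 kb past the start, in the annotated noncoding part of its last exon. The same bases hold the start site of Pdcd2 on the opposite strand, and the region ran from 78 bp before to 413 bp past that start, so that the peak cannot be given to Tbp rather than Pdcd2 from its position. At the start of Tbp the nearest peaks were 1.66 kb (Htt+/+ ASO, 3 reads, inside Psmb1), 4.7 kb (HttQ111/+ ASO, 4 reads), 23.3 kb and 40.4 kb away.

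**Figure D3:**
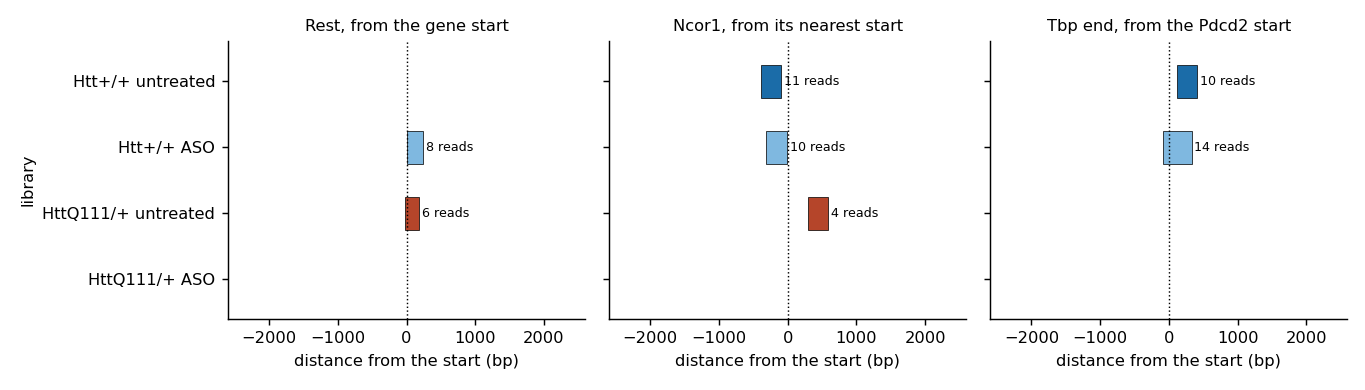
Peaks of each library (rows, bars from peak start to end with reads at the summit) around the Rest start, the nearest start of Ncor1 and the start of Pdcd2 at the end of Tbp (x axis, bp in the direction of transcription of the gene whose start is used). The HttQ111/+ ASO row is empty in all 3 panels, and the Ncor1 and Pdcd2 regions hold peaks of both Htt+/+ libraries.

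Sp1 and Crebbp had no shared region. Sp1 encodes the zinc finger activator that binds GC boxes, and its window held 1, 0, 2 and 0 peaks against 0.884, 0.816, 0.951 and 0.804 expected. The peak of the Htt+/+ untreated library, shown above, lay 825 bp upstream of the start with 4 reads and a fold enrichment of 5.85. Those of the HttQ111/+ untreated library lay upstream at -17.3 kb from the start with 2 reads and 2.25 kb into the gene with 3 reads. Neither ASO library had a peak at Sp1, and a count of 0 allows up to 3.69 peaks. Crebbp encodes CREB-binding protein, a histone acetyltransferase, and its window held 3, 0, 4 and 2 peaks against 2.59, 2.39, 2.79 and 2.36 expected. No peak lay within 10 kb of its start in any library, the nearest being 10.6 kb away in the HttQ111/+ ASO library. The peak with the most reads, 5 in the HttQ111/+ untreated library, was in a coding exon near the end of the gene, 1083 bp from it, and its sequence held the letters CAGCAGCAG on either strand 3 times, overlapping copies included.

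Ppargc1a and Bdnf, whose output is known to be lowered in the disease, had the fewest peaks for their length. Ppargc1a, which encodes PGC-1alpha, held 1, 1, 0 and 1 peaks against 2.32, 2.14, 2.5 and 2.11 expected. The total of 3 against 9.06 was the only one of the 10 whose interval (0.62 to 8.77) lay apart from the expected number. The 10 intervals were not corrected for their number, and 11.8% of protein-coding genes had windows no denser in peaks. The 3 Ppargc1a peaks had 2 or 3 reads, and 2 of them were in introns, 21.7 kb and 58.9 kb from the start. Bdnf held 1, 0, 0 and 0 peaks against 1.26, 1.17, 1.36 and 1.15 expected. The single Bdnf peak, with 3 reads, lay across the upstream edge of the window with its summit 20016 bp from the start, and the gene itself held 0 peaks over 4 libraries where 3.53 were expected. For the total of 1 the interval (0.03 to 5.57) held the expected 4.94, and 9.59% of genes were no denser. Counted by summit the total would be 0, and the interval of a count of 0 ends at 3.69, below 4.94. Nearest peaks to the Bdnf start in the other 3 libraries were 60.1, 123 and 64.9 kb away, beyond the window.

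**Figure D4:**
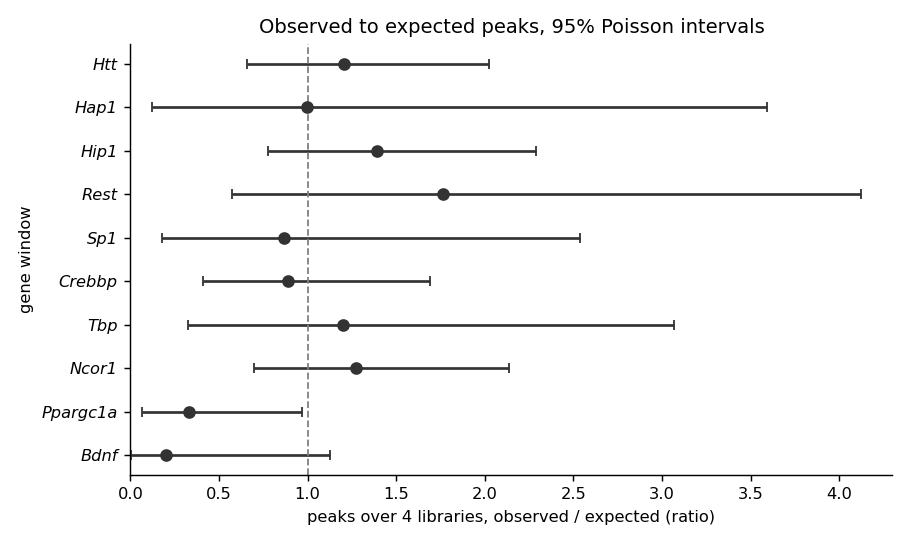
Ratio of observed to expected peaks over the 4 libraries (x axis) for each gene window, with exact 95% Poisson intervals as bars and the expected level of 1 as a dashed line. The interval of Ppargc1a (ratio 0.331) ends below 1, Bdnf (0.202) reaches just past it, and the other 8 genes lie between 0.868 and 1.77 with wide intervals.

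The totals of the other genes over 4 libraries were within their intervals. They were 14 against 11.6 for Htt, 2 against 2.01 for Hap1, 5 against 2.83 for Rest, 3 against 3.46 for Sp1, 9 against 10.1 for Crebbp, 4 against 3.34 for Tbp and 14 against 11 for Ncor1. Rest was the densest at 11.9 peaks per 100 kb, and 33.4% of protein-coding genes had windows at least as dense. The gene whose peak numbers were most like those of Htt, by the summed difference over the 4 libraries, was Abcc9, with a difference of 0 and no other gene tied.

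A peak within 1 kb of the start site was found for 3 genes in the Htt+/+ untreated library (Htt, Sp1 and Ncor1) against 13.2% of all genes. It was found for 2 genes in the Htt+/+ ASO library (Rest and Ncor1, against 16.5%), for 1 in the HttQ111/+ untreated library (Rest, against 18.7%) and for 0 in the HttQ111/+ ASO library (against 4.39%). In the last library start-site peaks were scarce at all genes, and none among 10 genes is near that share. The GC content of the window from 250 bases before to 50 bases after the start was 67.3% for Htt, 78.0% for Rest, 82.0% for Crebbp, 64.0% for Hip1, and between 48.7% (Ppargc1a) and 58.7% (Ncor1) for the other 6 genes, where the median of all genes was 55.0%. Crebbp, with the highest value, had no start-site peak in any library, and Ncor1, whose region lies 1 kb further in, had 1 in each Htt+/+ library. GC boxes were found in these windows for 6 of the 10 genes (7 at Rest, 4 at Htt, 3 at Hip1 and Sp1, 2 at Crebbp and 1 at Tbp) and in 43.4% of all such windows. The cyclic AMP response element TGACGTCA was found at Htt alone among the 10 and in 2.32% of all windows.

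Peaks with more reads were richer in GC. In the 200 bases around the summit, the 13 peaks with at least 5 reads had a median GC content of 71.5% (54.5% to 81.0%), and the 57 peaks with fewer reads had 49.5% (42.0% to 67.0%). Over all peaks of a library the medians were 55.5% to 65.0% and 48.0% to 52.0%, the lowest of each in the HttQ111/+ ASO library. The 6 peaks in shared regions had 71.5% to 77.0% and each held a GC box, which 13 of the 70 peaks and 7.71% of all peaks did. The REST site RE1, searched in its most constant bases on both strands, was in 0 of the 70 peaks and in 0.0238% of all peaks, and TGACGTCA was in 0 of the 70 and in 0.203% of all. CAGCAGCAG on either strand was in the 200 bases around the summit of 6 of the 70 peaks and of 2.72% of all. At the start-site peak of Htt the match lay in the glutamine tract, outside the called peak, with 54 bases between them. Matches to these letters describe the sequence and do not show that a factor was bound.

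**Figure D5:**
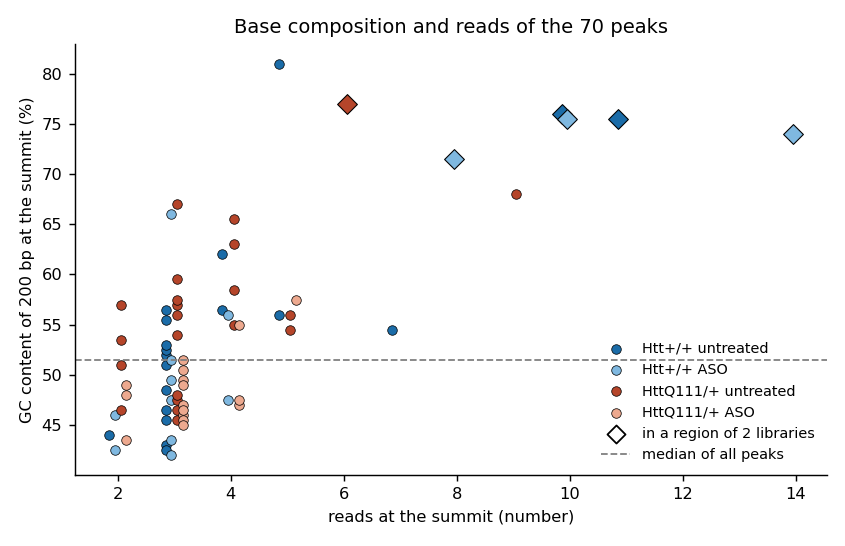
GC content of the 200 bp at the summit (y axis, %) against the reads at the summit (x axis) for the 70 peaks, by library, with diamonds for peaks in regions shared by 2 libraries and the median of all peaks (51.5%) as a dashed line. The 6 diamonds lie at 6 to 14 reads and at 71.5% GC or more, and the points with 2 to 4 reads spread from 42.0% to 67.0%.

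Most of the 70 peaks were weak and were not seen again. Of them, 35 lay in introns, 9 in coding exons, 8 in other exons, 16 upstream and 2 past the gene end, and 9 overlapped another gene. At least 5 reads were present at 18.6% of them, close to 16.9% of all peaks. A peak of another library overlapped 6 of the 70, which is 8.57%, against 17.9% of all peaks.

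The question whether lowering HTT reduces the peaks was addressed by the ratio of ASO to untreated. Over the 10 windows it was 0.684 in Htt+/+ mice (13 against 19 peaks, interval 0.343 to 1.37) and 0.727 in HttQ111/+ mice (16 against 22, interval 0.386 to 1.37), while all peaks of the libraries gave 0.923 and 0.845. The ratio in HttQ111/+ mice depended on the window and on Hip1. It was 1.14 within 20 kb either side of the start site and 1.0 without Hip1. By bases covered the ratio was 0.998. The narrowest peaks were wider in the HttQ111/+ ASO than in the HttQ111/+ untreated library, so the value by bases mixes peak number with peak width. The mean log2 ratio was -0.50, with a two-sided exact permutation p of 0.5, the smallest that 4 relabellings of libraries within genotype can give. In Htt+/+ mice 5 of the 10 windows (Hip1, Rest, Sp1, Crebbp and Bdnf) had fewer peaks with ASO and 1 (Tbp) had more, against 35.4% and 29.1% of all windows. In HttQ111/+ mice 4 (Hap1, Hip1, Sp1 and Crebbp) had fewer and 3 (Htt, Tbp and Ppargc1a) had more, against 43.6% and 23.5%. Hip1, Sp1 and Crebbp had fewer in both genotypes and Tbp more in both, by 1 to 6 peaks, against 17.8% and 7.6% of all windows. None of these shares was matched for window length, and a long window has more room for a difference. The start-site peaks of Htt and Sp1 in the Htt+/+ untreated library had no counterpart with ASO, and the Ncor1 peak was present in Htt+/+ mice without and with ASO at 11 and 10 reads. The Rest peak was present with ASO only in Htt+/+ mice and without ASO only in HttQ111/+ mice.

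The comparison of HttQ111/+ with Htt+/+ asked whether the mutant allele changes the peaks. The ratio was 1.16 in untreated mice (22 against 19, interval 0.633 to 2.12) and 1.23 with ASO (16 against 13, interval 0.601 to 2.52), and all peaks gave 1.08 and 0.985. Among peaks with 5 reads or more the ratios were 0.8 (4 against 5 peaks) and 0.333 (1 against 3). The direction turned in both, but on very few peaks. All peaks of the libraries with 5 reads or more numbered 9056 against 6794 in untreated mice and 5152 against 8413 with ASO. Within 20 kb either side of the start site the ratio was 0.778 in untreated mice. Without Hip1 or without Ncor1 the untreated ratio was 1.0, and without Htt it was 1.4. The mean log2 ratio was 0.26, again with an exact permutation p of 0.5, the smallest possible. In untreated mice 5 windows (Hap1, Hip1, Sp1, Crebbp and Ncor1) had more peaks in HttQ111/+ and 5 had fewer, against 36.6% and 28.4% of all windows. With ASO 3 (Htt, Crebbp and Ncor1) had more and 2 (Hip1 and Tbp) had fewer, against 27.9% and 35.9%. These shares too were not matched for window length. Ncor1 had 3 more peaks in HttQ111/+ under either treatment, and without Ncor1 the mean log2 ratio was 0.0. These comparisons share libraries, since each library enters both.

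Wider lists around the same biology were examined in the same way, with no test. Observed to expected peaks over 4 libraries were 1.20 for 20 genes of other huntingtin interactors, 1.22 for 25 transcription regulators and 1.09 for 11 REST targets, and 1.23 for all protein-coding genes. The ratios were 1.47 for 8 genes of BDNF signalling and 1.45 for 13 partners and targets of PGC-1alpha. Genes with a shared region numbered 8 of 20, 9 of 25, 3 of 11, 3 of 8 and 4 of 13 in these lists, beside 31.1% of all genes.

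Each list held regions that were present in more libraries than those of the 10 genes or had higher values. Rasa1, which encodes a RAS GTPase-activating protein, had a region 813 bp past its start with 7, 10 and 12 reads in all libraries but HttQ111/+ ASO. Rcor1, encoding the REST corepressor CoREST, had a region 687 bp past its start in all libraries but Htt+/+ untreated, with 6, 8 and 8 reads. Ppara, encoding a nuclear receptor that PGC-1alpha coactivates, had a region 478 bp past its start with 7, 9 and 7 reads in all libraries but HttQ111/+ ASO. Grin1, encoding the obligatory NMDA receptor subunit, had a region 7.94 kb from its start with 5, 6 and 6 reads in all libraries but HttQ111/+ untreated.

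The other genes named by the rule, those with the most libraries and highest fold enrichment in each list, had regions further from the start or in fewer libraries. The Hsf1 region, upstream at -19611 bp inside Bop1 and Scx, had 17 reads in the Htt+/+ ASO library, and the Calb1 region lay at -18878 bp, both in 3 libraries. Regions of Hip1r, Setd2, Furin, Ntf5, Ngfr, Ppargc1b, Tfam and Npas4 were present in 2 libraries each. The Ntf5 region, in a coding exon of this ligand of the BDNF receptor, had 8 reads in the Htt+/+ untreated and 7 in the HttQ111/+ ASO library.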

How the data were processed

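HTT ChIP-seq of mouse cortex was deposited as 1 MACS2 narrowPeak list per ChIP library. Per the labels, reads were demultiplexed with bcl2fastq 2.17, aligned with HISAT2 to mm9 and peaks called against input with MACS2; the methods of the study name another build, and 0 peaks pass the chromosome ends of mm9, the build used here. The authors' files give a score, which is 10 times the −log10 p, the fold enrichment (a ratio to input), and the −log10 of p and q values at the summit. Per the methods of the study, ChIP reads were first thinned to the smallest library and the 4 inputs joined into 1 control, to whose size the ChIP signal was scaled, so reads per peak do not show the sequenced depth.

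Reads at each summit were solved from the deposited fold and −log10 p (within 0.01) for 100.0% of peaks. Peaks were counted in gene windows (scipy 1.17.1 and pandas 2.3.3 under Python 3.11.15, sequences read with pysam 0.24.0) and compared with each library's density outside gaps, with exact Poisson 95% intervals. The peak lists give no total depth. The background rates that explain the fold values are 1.125, 1.221, 1.1 and 1.361 ChIP reads per kb, in the order used in the report. They are unequal, and higher with than without ASO in both genotypes, although the methods describe thinning to the smallest library. The reason was not tested, nor was the bearing of these rates on the peak counts. Ratios between libraries were tested by exact permutation. Regions merged peaks with q below 0.01 from at least 2 libraries. The 10 genes and all lists were chosen with earlier results of these data known. Named list genes were up to 3 per list, by number of libraries and then summed fold enrichment. 1 gene that this rule names is not reported here. Read recovery and region merging were tested on simulated data. Regions of known sequencing artefacts were not removed, as no list of them was used here. Inputs were not analysed here.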

Additional observations from a re-analysis of the deposited data

How the results depend on the processing

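Of 205 alternative values, 190 stayed within 1.5 times the main count, within the counting interval of the main ratio or, for mean log2 ratios, on the same side of 0. Those intervals are wide: of 96 alternative ratios, 12 lay on the other side of 1 than the main value, 11 of them inside its interval. Among them the ASO to untreated ratio in HttQ111/+ mice was 1.14 and the HttQ111/+ to Htt+/+ ratio in untreated mice 0.778 within 20 kb either side of the start site. A minimum of 5 reads per summit moved the ratio of observed to expected peaks to 1.86 in the Htt+/+ untreated and 0.489 in the HttQ111/+ ASO library. That limit left 5, 3, 4 and 1 peaks over the 10 windows. With it the ASO to untreated ratio in HttQ111/+ mice was 0.25 and the HttQ111/+ to Htt+/+ ratio with ASO was 0.333. The mean log2 ratio of genotypes turned to -0.95. The cause was not tested. Without Ncor1 that mean was 0.0. Genes with a shared region numbered 3, but 0 when at least 3 libraries were required, against 7.69% of all genes. A count of 0 among 10 genes is near that share. When each library was left out in turn they numbered between 0 and 3. The number was 1 (Rest) without the Htt+/+ untreated library and 0 without the Htt+/+ ASO library. The shares of all genes then ran from 16.8% (without HttQ111/+ untreated) to 25.5% (without HttQ111/+ ASO). None of these shares was matched for window length. A q below 0.001, added after the data were seen, gave the same 3 genes, against 24.6% of all genes. With a window of 3 kb upstream in place of 1 kb either side, genes with a peak numbered 1 in the Htt+/+ untreated library (Sp1) and 1 in the Htt+/+ ASO library (Tbp). With the starts of all transcripts they numbered 3 in the HttQ111/+ untreated (Rest, Sp1 and Ncor1) and 2 in the HttQ111/+ ASO library (Tbp and Ncor1). For these other windows at the start no share of all genes was computed. With q below 0.01, Rest in the HttQ111/+ ASO and Ppargc1a in the Htt+/+ ASO library held 0 peaks. No paired analysis was possible because the labels give no replicate numbers that pair samples; genotype or treatment was kept as a block by relabelling libraries within it. With a median of 3 reads at a summit, the absence of a peak is not evidence that the place was free of HTT.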
